A study of Mus musculus with 4 samples.

Results

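Conventional DC 1 (cDC1) are the splenic dendritic cells (DC) that take up dead cells and present their antigens to CD8 T cells, and 10 genes that mark them or form them were followed here: Xcr1, Clec9a, Batf3, Itgae, Cadm1, Naaa, Wdfy4, Cd8a, Cd24a and Id2. The members were every probe set of the array annotated with exactly 1 gene symbol from this list. They came to 17 of 45037 probe sets and to 9 of 17097 genes. Clec9a had no probe set under that symbol and was not analysed here. Of the 9 genes, 4 had more than 1 probe set (Cadm1, Cd8a, Cd24a and Id2) and 5 had exactly 1.

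The study ran 4 arrays: MARCO-/- DC with LPS, MARCO-/- DC with PBS, WT DC with LPS, and WT DC with PBS. LPS is the bacterial ligand of TLR4, PBS is the buffer control, and both cultures ran overnight. The MARCO-/- mice lack the scavenger receptor MARCO, and the WT mice were C57BL/6 (spelled C56BL/6 in the labels) adults of matching age and sex. DC were positively selected on CD11c from spleens pooled over several mice, so each array holds a mixture of cDC1, the other conventional DC (cDC2) and any other cell that carries CD11c or came along with the selection.

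In mouse spleen, cDC1 are set apart from cDC2 by a small circuit of factors. Batf3, a leucine zipper factor, works with Irf8 to keep the cDC1 programme on, and Id2 blocks E proteins that would favour plasmacytoid DC. The surface of the cell carries the chemokine receptor Xcr1, the dead-cell receptor Clec9a, the CD8α homodimer (Cd8a), the adhesion molecule Cadm1, the integrin chain CD103 (Itgae) and CD24 (Cd24a), while Wdfy4 serves cross-presentation inside it.

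Values are RMA intensities on a linear scale, and log2 ratios were taken from them. Ratios of 2-fold or more in either direction are counted as called, as in the methods. With 1 array per condition there is no replicate and no error and no test was run, so every difference below is a difference between 2 arrays. The median of all intensities was 4.87, and values near it are background, where the fold is limited by that floor. In RNA of a mixture, fewer cells of a type and less RNA per cell cannot be told apart. A gene is represented by the probe set with its highest mean, and no ratio between the levels of different probe sets was taken.

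The arrays differed in connective tissue and muscle transcripts, which are not defining genes of DC. The summed intensity of 14 such genes was 66.7 on the MARCO-/- LPS array, 814 on the MARCO-/- PBS array, 2550 in WT with LPS and 69.4 in WT with PBS. That of 12 macrophage genes was 666 with LPS and 3240 with PBS in MARCO-/-, and 444 with LPS and 2017 with PBS in WT. Of these 12, 9 in MARCO-/- and 11 in WT were at least 2-fold lower with LPS, alongside the members. Of all genes, 5.98% in MARCO-/- and 8.31% in WT were. No array could be left out, since each is the only one of its condition. The part of connective tissue, muscle or macrophage transcripts in the results was not tested. Marco itself lay close to the background, with 4.25 (LPS) and 3.95 (PBS) in MARCO-/- DC, and 3.15 (LPS) and 8.05 (PBS) in WT DC. Among genes shared by conventional DC, H2-Aa, a chain of MHC class II, had 5231 in MARCO-/- and 4999.8 in WT with PBS. Itgax, which encodes CD11c, had 621 in MARCO-/- and 548 in WT with PBS, but Zbtb46 only 45.4 and 42.3. With LPS, H2-Aa was 2035 in MARCO-/- and 3013 in WT. Itgax was only 16.4 in MARCO-/- and 12.9 in WT with LPS, so it did not bear out the DC label on the LPS arrays. How much of the H2-Aa signal came from cells other than DC was not tested.

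With LPS, most surface genes of cDC1 (Xcr1, Cadm1, Cd8a and Itgae) and Wdfy4 were at least 2-fold lower than with PBS in both genotypes, while Cd24a and the factors Batf3 and Id2 were not. Of the 9 genes, 5 were at least 2-fold lower with LPS in MARCO-/- DC (Xcr1, Itgae, Cadm1, Wdfy4 and Cd8a), where 5.98% of all genes were. In WT DC 6 were lower, the same 5 and Naaa, where 8.31% of all genes were. None of the 9 was at least 2-fold higher, where 6.32% of all genes in MARCO-/- and 6.2% in WT were. With only 9 genes, none higher is close to those shares. Counted over probe sets, 10 of 17 were lower in MARCO-/- (background 4.98%) and 11 of 17 in WT (background 7.97%). Among genes whose brighter log2 value was at least 8, 1 of 4 members was lower in MARCO-/- (background 12.9%) and 3 of 6 in WT (background 15.4%). The median log2 ratio over the members was -2.08 in MARCO-/- and -1.19 in WT, beside 0.00 and 0.05 over all genes. With 9 members a median is the value of a single gene, Itgae in MARCO-/- and Naaa in WT.

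**Figure D1:**
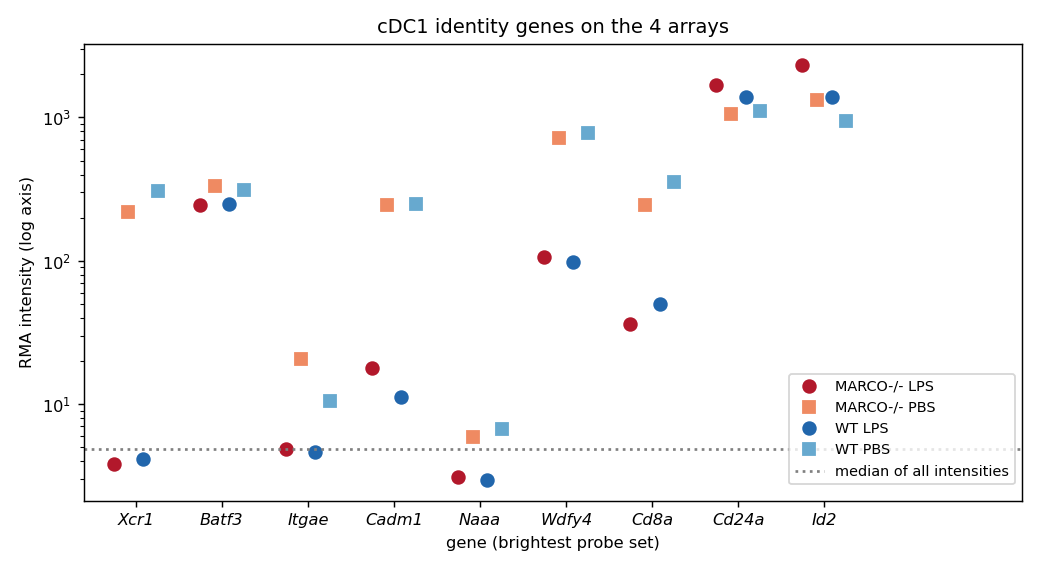
RMA intensity (log axis) of the 9 measured cDC1 identity genes, each by its brightest probe set; colours and markers give the 4 arrays as in the legend, 1 array per point, and the dotted line is the median of all intensities, 4.87. Xcr1 lies at 3.84 (MARCO-/-) and 4.14 (WT) on the LPS arrays, below that line, while Batf3 stays between 246 and 334 on all 4.

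Among the receptors, Xcr1 had the largest ratio. Xcr1 is the receptor for XCL1, a chemokine of NK cells and activated CD8 T cells, and is the most selective surface marker of cDC1. Its intensity was 3.84 with LPS and 219 with PBS in MARCO-/- DC (56.9-fold lower with LPS). In WT DC it was 4.14 with LPS and 309 with PBS (74.6-fold lower). Both LPS values lie under the median of all intensities, so both folds were set by the background. With 16 added to every intensity before the log, a step that shrinks ratios of dim values, the log2 ratios were -3.56 in MARCO-/- and -4.01 in WT. Xcl1, the ligand gene, had 46.3 with LPS and 114 with PBS in MARCO-/-, and 55.7 with LPS and 80.4 with PBS in WT.

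Cadm1, an immunoglobulin-family adhesion molecule that binds Crtam on activated T cells and NK cells, was lower with LPS in each of its 4 probe sets. The representative one had 18.0 with LPS and 244 with PBS in MARCO-/- DC (13.6-fold lower with LPS). In WT DC it had 11.2 with LPS and 249 with PBS (22.2-fold lower). Over the 4 probe sets the log2 ratio lay between -3.94 and -2.19 in MARCO-/-, and between -5.14 and -3.15 in WT. The ratio was nearer to 0 in MARCO-/- than in WT, by 0.71 to 1.23 on the log2 scale, a difference that was not tested. The LPS values behind it were at most 18.0, and those of the dimmest probe set lay at the background in both genotypes, so that its difference is that of its PBS values, 22.5 in MARCO-/- and 43.5 in WT. Crtam itself stayed near the background, at 3.40 to 5.57 on all arrays.

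Cd8a encodes the CD8α chain, which cDC1 of mouse spleen carry as a homodimer and T cells pair with CD8β. Its representative probe set had 36.0 with LPS and 244 with PBS in MARCO-/- DC (6.78-fold lower with LPS). In WT DC it had 49.7 with LPS and 357 with PBS (7.19-fold lower). The other probe sets gave larger ratios, 10.3-fold and 7.10-fold lower in MARCO-/- and 18.0-fold and 11.2-fold lower in WT, so all 3 pass 2-fold in both genotypes. Because T cells also express Cd8a, 14 T cell genes were read beside it. Their summed intensity was 274 with LPS and 321 with PBS in MARCO-/-, and 267 with LPS and 310 with PBS in WT. Of the 14, 1 was at least 2-fold lower with LPS in MARCO-/- and none higher, and 3 were lower and 1 higher in WT. The shares over all genes were 5.98% lower and 6.32% higher in MARCO-/-, and 8.31% and 6.2% in WT. The median log2 ratio of the 14 was -0.29 in MARCO-/- and -0.30 in WT, with 11 and 9 of them below 0. Cd3d, a chain of the T cell receptor complex, was among the genes above 0 in both. It had 69.1 with LPS and 56.3 with PBS in MARCO-/-, and 69.7 with LPS and 56.0 with PBS in WT. The Cd8b1 probe set, for the CD8β chain of T cells, had 18.8 with LPS and 20.0 with PBS in MARCO-/-, and 9.83 with LPS and 22.0 with PBS in WT. The T cell genes at least 2-fold lower with LPS were Cd5 in MARCO-/-, and Cd5, Cd28 and Cd8b1 in WT. The part of T cell RNA in the Cd8a values was not tested.

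Itgae encodes the αE chain that pairs with β7 to bind E-cadherin. Its single probe set was dim, with 4.88 with LPS and 20.6 with PBS in MARCO-/- DC (4.22-fold lower with LPS), and 4.68 with LPS and 10.5 with PBS in WT DC (2.25-fold lower). Both LPS values are at the background, and with 16 added before the log neither genotype passed 2-fold. Itgb7, the partner chain, was lower with LPS too, at 49.5 with LPS and 137 with PBS in MARCO-/-, and 35.2 with LPS and 129 with PBS in WT. The gene of the ligand, Cdh1, lay near the background on every array (2.59 to 6.03).

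Wdfy4, a BEACH-domain protein that cDC1 need to cross-present antigens of dead cells, was also lower with LPS in both genotypes. Its intensity was 106 with LPS and 724 with PBS in MARCO-/- DC (6.81-fold lower with LPS), and 98.3 with LPS and 777 with PBS in WT DC (7.90-fold lower). All 4 values are well above the background, and the LPS arrays kept 14.7% and 12.7% of the PBS intensity. Naaa, a lysosomal hydrolase of fatty acid amides, was hardly above the background in its single probe set. It had 3.11 with LPS and 5.87 with PBS in MARCO-/- (1.89-fold lower with LPS), and 2.96 with LPS and 6.77 with PBS in WT (2.29-fold lower), and the call in WT was lost with 16 added before the log.

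Neither factor passed 2-fold with LPS. Batf3 had 246 with LPS and 334 with PBS in MARCO-/- DC (1.36-fold lower with LPS), and 249 with LPS and 314 with PBS in WT DC (1.26-fold lower). The Batf3 arrays of the genotypes lay within 1.07-fold of each other with either treatment. Id2, which binds E proteins and keeps them off DNA, had 2331 with LPS and 1320 with PBS in MARCO-/- (1.77-fold higher with LPS), and 1395 with LPS and 938 with PBS in WT (1.49-fold higher). All 3 Id2 probe sets were higher with LPS in both genotypes, by 1.24-fold to 1.81-fold in MARCO-/- and 1.33-fold to 1.49-fold in WT, and none passed 2-fold. NK and innate lymphoid cells also depend on Id2, and the summed intensity of 9 of their genes was 238 with LPS and 858 with PBS in MARCO-/-, and 421 with LPS and 1141 with PBS in WT. Of the 9, 6 were at least 2-fold lower with LPS in MARCO-/-, and 7 were lower and 1 higher in WT. Over all genes, 5.98% were lower in MARCO-/-, and 8.31% were lower and 6.2% higher in WT. How much of the Id2 signal came from NK and innate lymphoid cells was not tested.

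Cd24a, a short glycosylated protein anchored by lipid, did not pass 2-fold either. Its representative probe set had 1672 with LPS and 1054 with PBS in MARCO-/- DC (1.59-fold higher with LPS), and 1384 with LPS and 1118 with PBS in WT DC (1.24-fold higher). The other probe set was 1.65-fold higher in MARCO-/- and 1.08-fold higher in WT. B cells, erythroid cells and neutrophils carry Cd24a too. The summed intensity of 10 B cell genes was 1914 with both treatments in MARCO-/-, and 2580 with LPS and 2431 with PBS in WT, and 2 of the 10 in MARCO-/- and 3 in WT were at least 2-fold lower with LPS. That of 7 erythroid genes was 6844 with LPS and 6418 with PBS in MARCO-/-, and 4000.5 with LPS and 4421 with PBS in WT, most of it from Hba-a1, and 3 of the 7 in MARCO-/- and 2 in WT were lower. That of 8 neutrophil genes was 43.2 with LPS and 319 with PBS in MARCO-/-, and 63.4 with LPS and 398 with PBS in WT, and 4 of the 8 were lower in each genotype. Of all genes, 5.98% in MARCO-/- and 8.31% in WT were at least 2-fold lower with LPS. How much of the Cd24a signal came from B cells, erythroid cells and neutrophils was not tested. Siglecg, whose product binds CD24, had 155 with LPS and 203 with PBS in MARCO-/-, and 90.0 with LPS and 191 with PBS in WT (2.12-fold lower with LPS).

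**Figure D2:**
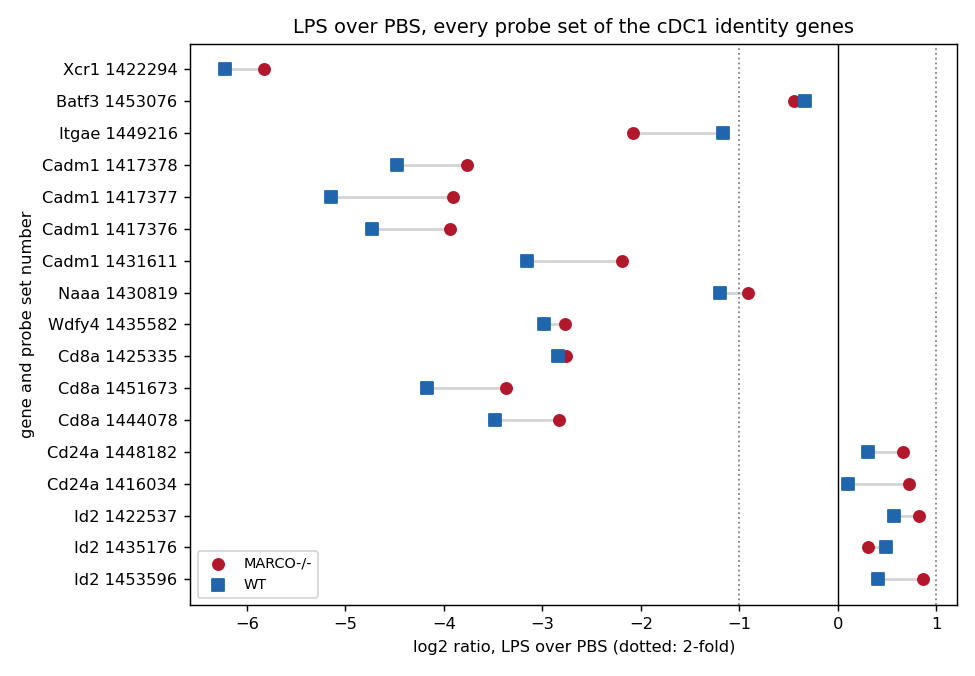
log2 ratio of LPS over PBS for each of the 17 probe sets (rows), in MARCO-/- DC (red circles) and WT DC (blue squares); each point compares 2 arrays and dotted lines mark 2-fold. All rows of Xcr1, Cadm1, Wdfy4 and Cd8a lie left of -2 in both genotypes, and all rows of Cd24a and Id2 lie between 0 and 1.

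To set members that passed 2-fold with LPS beside members that did not, promoters were read from RefSeq (GRCm38.p6), as 250 bases before and 50 after the start. A sequence was matched for 7 members (Xcr1, Clec9a, Batf3, Naaa, Wdfy4, Cd8a and Id2), and 6 of these had a probe set. Shown are 2 genes that were much lower with LPS, Xcr1 (chr9:123861980-123862279, minus strand) and Cd8a (chr6:71373177-71373476, plus strand), and 2 that were not, Batf3 (chr1:191098164-191098463, plus strand) and Id2 (chr12:25096043-25096342, minus strand). Capitals mark CpG dinucleotides, read 5′ to 3′ on the strand of the gene.
Xcr1: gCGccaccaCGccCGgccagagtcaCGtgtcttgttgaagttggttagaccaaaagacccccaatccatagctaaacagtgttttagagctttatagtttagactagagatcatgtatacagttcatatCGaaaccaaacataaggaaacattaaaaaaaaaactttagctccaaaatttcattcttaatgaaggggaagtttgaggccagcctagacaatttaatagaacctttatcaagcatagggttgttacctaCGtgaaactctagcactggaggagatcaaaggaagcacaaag
Cd8a: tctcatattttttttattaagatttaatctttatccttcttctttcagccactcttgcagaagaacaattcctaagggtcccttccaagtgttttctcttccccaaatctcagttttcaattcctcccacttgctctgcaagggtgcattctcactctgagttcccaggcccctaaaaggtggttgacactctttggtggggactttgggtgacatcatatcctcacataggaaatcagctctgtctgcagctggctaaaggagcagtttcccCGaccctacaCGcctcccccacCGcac
Batf3: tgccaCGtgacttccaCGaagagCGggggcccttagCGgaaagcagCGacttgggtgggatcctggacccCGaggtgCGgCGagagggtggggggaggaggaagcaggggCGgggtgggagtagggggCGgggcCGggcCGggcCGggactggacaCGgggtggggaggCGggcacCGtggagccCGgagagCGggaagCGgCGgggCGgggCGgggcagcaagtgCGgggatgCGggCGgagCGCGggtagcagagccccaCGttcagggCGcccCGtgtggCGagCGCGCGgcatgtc
Id2: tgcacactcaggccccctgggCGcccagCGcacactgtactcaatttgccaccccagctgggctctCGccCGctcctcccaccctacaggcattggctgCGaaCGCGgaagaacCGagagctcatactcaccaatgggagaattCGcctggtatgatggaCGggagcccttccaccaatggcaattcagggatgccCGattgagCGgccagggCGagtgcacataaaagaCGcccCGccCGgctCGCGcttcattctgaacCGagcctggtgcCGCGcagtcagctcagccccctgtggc

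The Xcr1 window holds 6 CpG and the Cd8a window 3, while the Batf3 window holds 34 and the Id2 window 21, where the median over 32851 promoters is 7. The windows of Wdfy4, Naaa and Clec9a hold 5, 12 and 1. By a GC share of at least 50% and a ratio of observed to expected CpG of at least 0.6, those of Batf3 and Id2 are CpG-rich and the other 5 are not. Of all promoters 33.5% are CpG-rich, and of 13605 measured genes with a promoter sequence 7764 have at least 1 that is. The same contrast was small over all genes with a promoter sequence. In MARCO-/- DC 5.22% of 7764 genes with a CpG-rich promoter and 7.12% of 5841 other genes were at least 2-fold lower with LPS. In WT DC the order was the opposite, with 9.30% and 7.16%. Both orders were read under the deposited scaling only. The share of all genes lower with LPS in WT was 8.31% under it and 6.82% after quantile normalization. The AP-1 motif TGANTCA, searched on both strands, was in none of the 7 windows and is in 7.81% of all promoters. The longer IRF and kappaB motifs were also in none of the 7, and are in 3.44% and 20.7% of all promoters. The E-box CANNTG, the letters that E proteins bind, was in 6 of the 7 windows, all but that of Naaa, and is in 72.3%. These matches are descriptions of letters in short windows.

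Between genotypes, no member passed 2-fold with either treatment, where 3.4% of all genes did with LPS and 1.05% with PBS. With only 9 members, none passing is close to those shares. With LPS, 2.09% of all genes were higher and 1.31% lower in MARCO-/-, a split that was 1.36% and 1.54% after quantile normalization, 1.41% and 1.38% after cyclic loess, and 2.91% and 1.16% with arrays centred on their medians. Over the 9 members the median log2 ratio of MARCO-/- over WT was 0.07 with LPS and -0.08 with PBS. Over the 17 probe sets the ratio ran from 0.726 to 1.67 with LPS and from 0.516 to 1.96 with PBS.

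With PBS, the 3 Cd8a probe sets were all lower in MARCO-/- DC. Their intensities were 244, 168 and 109 in MARCO-/-, against 357, 235 and 209 in WT, which is 1.46-fold, 1.40-fold and 1.91-fold lower. Xcr1 was lower by a like factor, with 219 in MARCO-/- and 309 in WT (1.41-fold). The 4 Cadm1 probe sets had 244, 187, 171 and 22.5 in MARCO-/-, against 249, 271, 204 and 43.5 in WT. These are 1.02-fold to 1.94-fold lower. Wdfy4 (724 in MARCO-/-, 777 in WT) and Batf3 (334 in MARCO-/-, 314 in WT) differed by less than 1.1-fold. The probe sets of Cadm1 alone spread as widely, so whether the members shared one ratio between genotypes cannot be told from 2 arrays. Itgae ran the other way, with 20.6 in MARCO-/- and 10.5 in WT (1.96-fold higher), both dim. It passed 2-fold after quantile normalization but under no other scaling tried. Its log2 ratio was 0.97, and 0.46 with 16 added before the log. All of these differences are under the threshold and rest on a single pair of arrays.

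Counted by gene, 6 of the 9 members had the higher value in MARCO-/- with LPS, beside 8293 of 17097 genes, and 6 of the 9 had the lower value in MARCO-/- with PBS, beside 7138 of 17097. With LPS, Id2 was 1.67-fold higher in MARCO-/- in its representative probe set, at 2331 against 1395 in WT. Another Id2 probe set had 1493 in MARCO-/- and 1386 in WT with LPS. Cadm1 was 1.61-fold higher with LPS in its representative probe set, at 18.0 in MARCO-/- and 11.2 in WT, both dim. The Cd8a probe sets disagreed in direction with LPS, at 36.0, 16.3 and 15.4 in MARCO-/- and 49.7, 13.1 and 18.7 in WT.

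**Figure D3:**
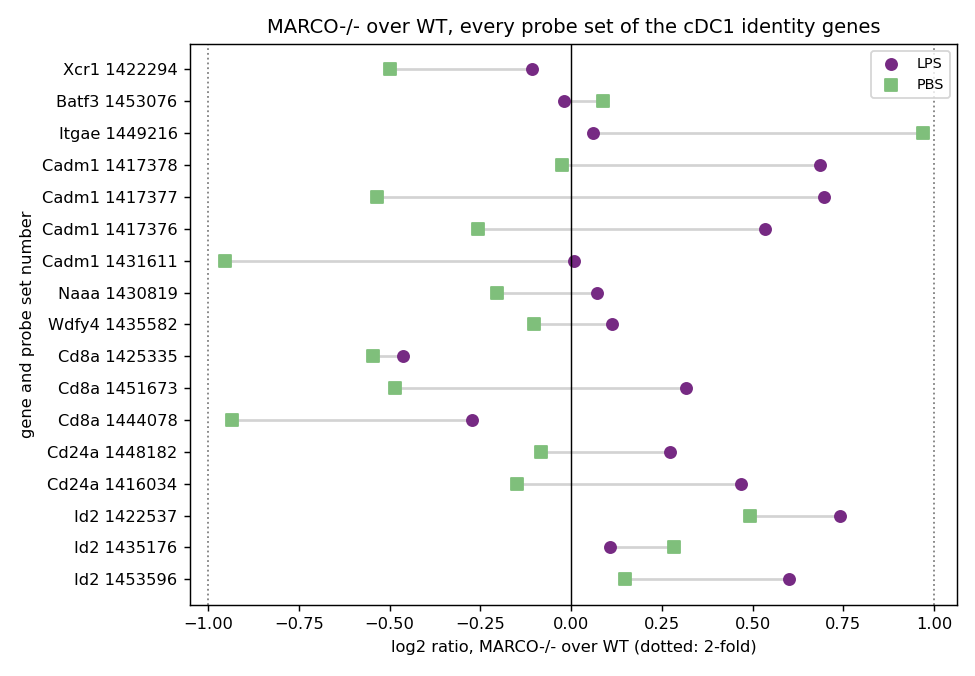
log2 ratio of MARCO-/- over WT for each of the 17 probe sets (rows), with LPS (purple circles) and with PBS (green squares); each point compares 2 arrays and dotted lines mark 2-fold. No point lies outside 2-fold, and Itgae with PBS lies nearest to it (log2 ratio 0.97).

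Other genes of cDC1 and of its functions were called in both directions with LPS. Of 25 measured, 10 were at least 2-fold lower and 5 higher with LPS in MARCO-/- DC, and 10 were lower and 3 higher in WT DC. Over all genes, 5.98% were lower and 6.32% higher in MARCO-/-, and 8.31% were lower and 6.2% higher in WT. Tlr3, the endosomal sensor of double-stranded RNA that is highest in cDC1, had 5.44 with LPS and 81.6 with PBS in MARCO-/-, and 3.75 with LPS and 118 with PBS in WT. Cxcl9, a chemokine that draws T cells, had 9.99 with LPS and 474 with PBS in MARCO-/-, and 19.2 with LPS and 461 with PBS in WT. Ppt1, a lysosomal thioesterase, had 62.4 with LPS and 1161 with PBS in MARCO-/-, and 77.3 with LPS and 1473 with PBS in WT, although 1 of its 3 probe sets had a ratio near 1. The small GTPases of vesicle traffic Rab7b and Rab43 were lower too, with Rab7b at 11.1 with LPS and 139 with PBS in MARCO-/-, and at 12.6 with LPS and 224 with PBS in WT.

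The 5 higher genes in MARCO-/- DC were Ly75, Nfil3, Id3, Batf and Zbtb46, and the 3 in WT DC were Ly75, Id3 and Batf. Of the 4 Zbtb46 probe sets, 1 passed 2-fold in MARCO-/- and 2 had ratios of the opposite sign, down to a log2 ratio of -0.52. Ly75, which encodes the uptake receptor DEC-205, had 305 with LPS and 45.7 with PBS in MARCO-/- DC, and 221 with LPS and 71.9 with PBS in WT DC. Nfil3, a repressor needed early in cDC1 formation, had 381 with LPS and 109 with PBS in MARCO-/- (3.50-fold higher with LPS), and 300 with LPS and 242 with PBS in WT (1.24-fold higher). Nfil3 was also the sole gene of these 25 past 2-fold between genotypes, at 2.23-fold lower in MARCO-/- with PBS. Id3, a relative of Id2, had 48.6 with LPS and 15.2 with PBS in MARCO-/-, and 46.2 with LPS and 13.8 with PBS in WT.

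Of 13 genes whose products partner with those of the members, 5 were at least 2-fold lower with LPS in MARCO-/- DC and 6 in WT DC. None of the 13 was higher. The shares over all genes were 5.98% lower and 6.32% higher in MARCO-/-, and 8.31% and 6.2% in WT. Irf8, with which Batf3 acts, had 432 with LPS and 672 with PBS in MARCO-/- DC, and 514 with LPS and 760 with PBS in WT DC, under 2-fold in both. Jun, a leucine zipper partner, was 8.90-fold lower in MARCO-/- and 8.24-fold lower in WT with LPS. Junb was 2.54-fold lower in MARCO-/- and 3.01-fold lower in WT, and Jund 4.09-fold and 3.98-fold lower, although the other Jund probe set had a ratio near 1. Batf, the family member that can stand in for Batf3 in mice, had 64.0 with LPS and 26.7 with PBS in MARCO-/-, and 104 with LPS and 19.9 with PBS in WT. Of the E protein genes that Id2 opposes, Tcf3, Tcf4 and Tcf12 were each under 2-fold in every comparison.

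Markers of other DC were read in the same way. The counts stand beside all genes, of which 5.98% were lower and 6.32% higher in MARCO-/-, and 8.31% lower and 6.2% higher in WT. Of 12 cDC2 genes, 7 were at least 2-fold lower with LPS in MARCO-/- DC and 7 in WT DC, with median log2 ratios of -1.42 and -1.73. Cd209a, a lectin of cDC2, had 5.94 with LPS and 189 with PBS in MARCO-/-, and 7.65 with LPS and 219 with PBS in WT. Of 9 genes shared by conventional DC, 6 were lower and 2 higher (Zbtb46 and Traf1) in MARCO-/-, and 5 were lower and 1 higher (Traf1) in WT. Itgax, whose product was the handle of the selection, had 16.4 with LPS and 621 with PBS in MARCO-/-, and 12.9 with LPS and 548 with PBS in WT. Of 8 genes of plasmacytoid DC, 2 were lower and 1 higher in each genotype. Of 15 maturation genes, 13 were at least 2-fold higher with LPS in MARCO-/- and 11 in WT. Socs2, an inhibitor of cytokine signalling that mature DC express, had 2190 with LPS and 145 with PBS in MARCO-/-, and 1469 with LPS and 212 with PBS in WT.

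**Figure D4:**
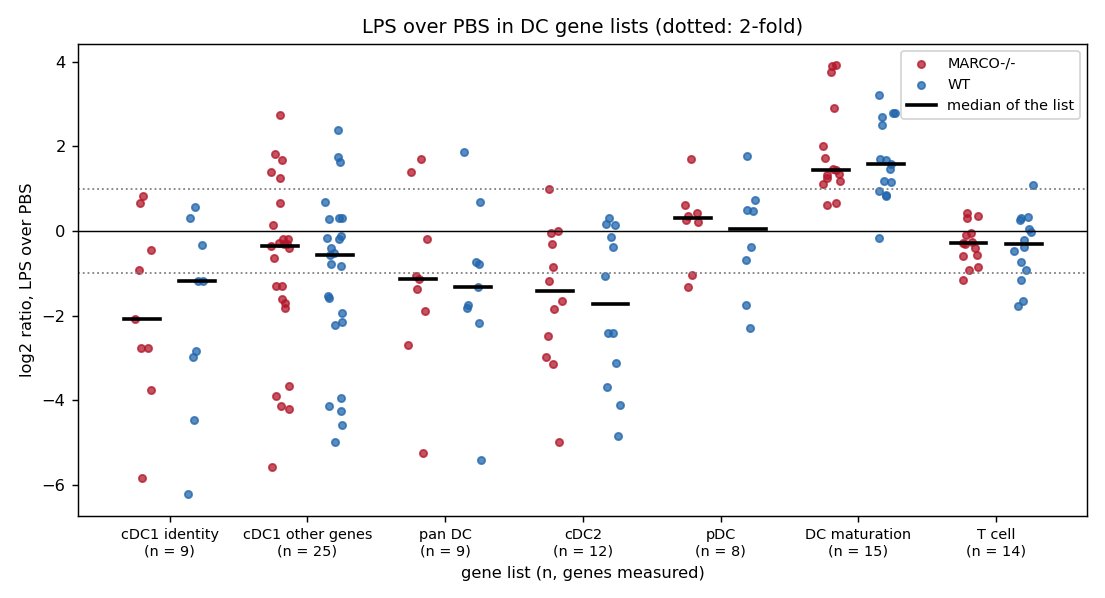
log2 ratio of LPS over PBS for the genes of 7 lists (columns), in MARCO-/- DC (red) and WT DC (blue); points are single genes, shown by the probe set of highest mean, black bars are list medians and dotted lines mark 2-fold. The bars of cDC1 identity, conventional DC and cDC2 genes lie below -1 in both genotypes, and those of maturation genes lie at 1.44 and 1.59. The bars of the other cDC1 genes lie at -0.36 (MARCO-/-) and -0.56 (WT).

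For each of the 5 members called in both genotypes, the nearest genes over the 4 arrays were taken, by the distance between log2 values centred on their own mean, among genes with a log2 value of at least 8 on an array. With 4 arrays and large LPS ratios, a small distance says little more than that a gene has like ratios. Those nearest to Xcr1 were Alox5ap, which serves leukotriene synthesis, Adamdec1, a secreted protease, and Itgax (distances 0.71, 0.86 and 0.91). Cadm1 lay near Aif1, an actin-binding protein of myeloid cells, Cfp, which encodes properdin, and Zfp36l2, which promotes mRNA decay (0.26, 0.32 and 0.39). Wdfy4 lay near Ier2, Hps3 and Jun (0.27, 0.27 and 0.28), and Itgae near Marveld1, Ccrl2 and Dtx1 (0.26, 0.28 and 0.30). Those nearest to Cd8a were H2-DMa, H2-Ob and H2-DMb1 (0.28, 0.35 and 0.36), which all encode chains of proteins that act in peptide loading of MHC class II. H2-DMa had 103 with LPS and 872 with PBS in MARCO-/- DC, and 138 with LPS and 1105 with PBS in WT DC.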

How the data were processed

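Splenic DC were profiled on Affymetrix Mouse Genome arrays, 1 per condition. The deposited intensities were extracted from CEL files and normalized with RMAexpress by the authors, which corrects background and summarizes each probe set (version not given in the sources used here). They span 1.54 to 7414, so they are linear, and log2 was taken with no offset. RMA compresses ratios of dim probe sets. The number of arrays limits the precision.

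Of 45141 probe sets, 104 controls were left out. Of the other 45037, 28898 have 1 gene symbol in the annotation used, 551 have several and 15588 are not listed. Members and lists were chosen with earlier results of these data known. Every member was named with all its probe sets. The partner genes were all named too, but not with all their probe sets. List genes past 2-fold could be named, and a part of them were, as examples chosen after their values were seen. Added were the 3 genes nearest to each member past 2-fold with LPS in both genotypes. Genes under 2-fold named beyond these were also chosen after their values were seen. Alternatives were median centring, quantile normalization, cyclic loess, other rules for the probe set of a gene, an offset, a minimum and other thresholds. The steps were tested on simulated data. Python 3.11.15, numpy 2.4.6, pandas 2.3.3, matplotlib 3.10.9, R 4.3.3 and limma 3.58.1 were used.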

Additional observations from a re-analysis of the deposited data

How the results depend on the processing

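The depth of the evidence is 1 array per condition. Values near the background carry most of the dependence on processing. With LPS over PBS, the number of members past 2-fold was 5 in MARCO-/- and 6 in WT with median centring, quantile normalization and cyclic loess. It was the same with each rule for the probe set of a gene, which could not alter the 5 members with exactly 1 probe set. With 16 added before the log it was 4 in each genotype, and the medians moved to -0.81 in MARCO-/- and -0.36 in WT. Among members whose brighter log2 value was at least 8, 1 of 4 passed in MARCO-/-, with a median of 0.11 where it had been -2.08, and 3 of 6 passed in WT. These leave out Xcr1, Cadm1, Cd8a, Itgae and Naaa in MARCO-/-, and Cadm1, Itgae and Naaa in WT. At 1.5-fold 8 of 9 passed in MARCO-/-, of which Cd24a and Id2 were higher with LPS, and 6 of 9 passed in WT. Between genotypes, 1 member (Itgae) passed with PBS after quantile normalization, where 0.78% of all genes were higher and 0.26% lower in MARCO-/-. At 1.5-fold 1 passed with PBS, and 2 passed with LPS (Cadm1 and Id2). The share of all genes past 1.5-fold was not computed, so the counts at 1.5-fold have no background beside them. Of 270 single ratios under these alternatives, 256 stayed within a factor of 1.5, 14 moved further and none of those called turned round. Part of the 256 could not move. The minimum of log2 8 keeps each ratio as it was, and the probe set rules cannot alter a member with exactly 1 probe set. Leaving out a replicate was not run, as there is 1 array per condition. No paired analysis was possible with 1 array per condition. The methods cultured DC of each pool with or without agonist, so the LPS and PBS arrays of a genotype may share a pool. A fit of LPS with genotype as a block, over both genotypes, was not run.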
